A study of Rattus norvegicus with 12 samples.

Results

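The genes described here belong to the T cell receptor complex, its signalling and T lineage commitment. They are Cd3d, Cd3e, Cd3g, Cd4, Cd8a, Cd5, Zap70, Lck, Cd28 and Bcl11b. They were found by gene name among the non-control probes of a rat oligonucleotide array. The 10 genes lie on 11 of 41012 probes, which hold 35279 named features. Bcl11b has 2 probes and each of the other 9 genes has 1. The study measured RNA from whole blood and from the left ventricle of the heart of male Sprague-Dawley (CD) rats, 10 weeks old and 290 to 320 g at the start. The labels also give their age as 11 weeks. Amiodarone, an antiarrhythmic drug, was given by mouth at 300 mg/kg per day for 10 days, and the vehicle was 1% methylcellulose. There were 4 groups of 3 pools with 1 array each: amiodarone blood, vehicle blood, amiodarone heart and vehicle heart. How many rats made up a pool is not given, so the p-values measure the spread between pools. Nor is it given whether heart and blood pools of 1 number come from the same rats, and tests between tissues treat them as independent. All groups share the strain, the sex and daily oral dosing. The study asks how expression in both tissues differs after the drug.

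A T cell recognises antigen through a receptor whose signal leaves the membrane through the CD3 chains. CD4 or CD8 binds the presenting molecule and brings the kinase Lck, which phosphorylates the CD3 chains. ZAP-70 then docks on the phosphorylated chains and passes the signal on, CD28 adds costimulation, and CD5 dampens it. In rats CD4 is also found on monocytes and macrophages, and CD8 alpha also on natural killer cells.

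The probes are 60 bases long. Positions are on the rn4 build, as the array's own annotation gives them. Of the 11 probes, 8 lie on 1 unbroken stretch of the genome, and those of Cd4, Cd5 and Lck span more genome than their own length, by 540, 767 and 2048 bases. The probes of those 3 genes are shown because their targets lie on both sides of such a gap, that of Cd3e because it reads the CD3 chain that passed the test in blood, and both probes of Bcl11b because they gave different results. The 2 Bcl11b probes lie 75773 bases apart. No base is marked by capitals in these sequences.
Cd3e, chr8:47950313-47950372, minus strand: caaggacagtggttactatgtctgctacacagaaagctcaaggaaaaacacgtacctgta
Cd4, chr4:160989843-160990442, minus strand: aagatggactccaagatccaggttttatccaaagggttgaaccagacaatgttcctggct
Cd5, chr1:213216483-213217309, minus strand: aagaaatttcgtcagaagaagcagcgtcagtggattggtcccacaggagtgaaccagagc
Lck, chr5:148713169-148715276, minus strand: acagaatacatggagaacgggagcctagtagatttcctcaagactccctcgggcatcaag
Bcl11b, brighter probe A_44_P185355, chr6:132294349-132294408, minus strand: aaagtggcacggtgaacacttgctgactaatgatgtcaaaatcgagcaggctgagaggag
Bcl11b, dimmer probe A_44_P352043, chr6:132370182-132370241, minus strand: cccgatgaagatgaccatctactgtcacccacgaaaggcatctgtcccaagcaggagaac

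Values are Agilent's processed intensity, which is background-subtracted but not matched between arrays. The arrays of the blood groups differed in brightness as a whole. The 75th percentile of intensity over all probes was 70.3 ± 14.9 in amiodarone blood and 23.2 ± 2.66 in vehicle blood (SD, n = 3 each). Likewise, 20625 to 21245 spots were well above background in amiodarone blood, against 14459 to 15548 in vehicle blood. In heart the 75th percentile was 121 ± 25.8 in amiodarone pools and 134 ± 29.6 in vehicle pools (SD, n = 3 each). The markers of both tissues fit the labels: 16 cardiomyocyte markers held 3.93 to 4.25% of the summed signal in amiodarone hearts and 3.84 to 4.43% in vehicle hearts. In blood they held at most 0.00742%, and Myh6, a cardiac myosin heavy chain, was not well above background on any blood array. The test below subtracts each array's log2 75th percentile (75th percentile scaling), and the blood values and counts below use it unless they are said to be unscaled.

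In blood, 7 of the 9 testable genes were higher after amiodarone and none was lower: Cd3e, Cd4, Cd8a, Cd5, Zap70, Lck and Bcl11b rose, by 0.63 (Lck) to 0.95 (Zap70) on the log2 scale, with Cd4 given as a bound. Cd3d and Cd3g did not pass (limma, Benjamini-Hochberg adjusted p = 0.164 and 0.113). These counts stand against a tissue where 68.1% of the 15663 features tested passed, 41.2% higher and 26.9% lower. The median log2 difference was 0.72 over the 9 genes and 0.45 over all features, and 7 of the 9 lay above that median. Cd4 is in the median of the 9 genes and in both counts of 7. No vehicle array measured it, and its bound is only 1.13-fold. A bulk measurement cannot tell more T cells from more of these RNAs per cell.

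Among the receptor chains, Cd3d had 16705, 10072 and 14170 units of intensity in amiodarone blood pools 1, 2 and 3, against 3646, 3099 and 4306 in vehicle blood pools 1, 2 and 3. Unscaled, all amiodarone pools were above all vehicle pools, and after scaling the difference was 0.29 (SE 0.17) and the groups still did not overlap. Cd3g, the next chain, had 8821, 4716 and 8123 in amiodarone blood against 1790, 1406 and 2214 in vehicle blood, a scaled log2 difference of 0.39 (SE 0.20). After scaling its groups overlapped, with amiodarone pool 2 below vehicle pool 3. Cd3e, the third chain, had 515, 292 and 418 in amiodarone blood against 96.3, 75.6 and 78.7 in vehicle blood. It rose by 0.67 on the log2 scale (SE 0.17, adjusted p = 0.0102) with no overlap.

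The coreceptors differed in how well they were measured. Cd8a, which binds class I molecules, had 630.0, 467 and 691 in amiodarone blood against 132, 118 and 108 in vehicle blood, and rose by 0.72 (SE 0.19, adjusted p = 0.0120) with no overlap. Cd4, which binds class II molecules, had 35.6, 24.1 and 41.1 in amiodarone blood against 10.8, 2.38 and 2.43 in vehicle blood. No vehicle array measured Cd4 well above background, so its scaled means of -1.08 ± 0.21 in amiodarone blood and -2.54 ± 1.15 in vehicle blood (log2, SD, n = 3 each) give a bound. The bound sets the vehicle level at its own value or at the dimmest measured signal of the array, whichever is higher. On that bound Cd4 was at least 1.13-fold higher in amiodarone blood. The limma test used the vehicle values as they were (adjusted p = 0.0390) and was not run on the bound. The scaled groups of Cd4 overlapped, since vehicle pool 1 stood apart from the other vehicle pools.

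The kinases both rose. Zap70 had 5561, 3566 and 5045 in amiodarone blood against 730.3, 753 and 941 in vehicle blood, a scaled rise of 0.95 (SE 0.18, adjusted p = 0.00406). This was the smallest p among the 9 genes, and the scaled amiodarone pools had an SD of 0.0323 (log2, n = 3). Lck had 488, 436 and 524 in amiodarone blood against 132, 100.3 and 83.7 in vehicle blood, and rose by 0.63 (SE 0.23, adjusted p = 0.0408). Neither kinase overlapped between groups.

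Of the remaining genes, Cd5 had 431, 311 and 380.2 in amiodarone blood against 87.9, 64.4 and 54.8 in vehicle blood, and rose by 0.87 (SE 0.21, adjusted p = 0.00918) with no overlap. Bcl11b, a transcription factor of T lineage commitment, had 990.4, 379.7 and 963 on its brighter probe in amiodarone blood against 121, 131 and 148 in vehicle blood. That probe rose by 0.84 (SE 0.28, adjusted p = 0.0297), with amiodarone pool 2 far below the other amiodarone pools. The dimmer Bcl11b probe had 41.0, 28.0 and 47.4 in amiodarone blood against 13.6, 11.7 and 25.4 in vehicle blood, a scaled log2 difference of -0.34 (SE 0.29, adjusted p = 0.326), so the probes disagree. Cd28 was not well above background on any of the 12 arrays, with 1.93 to 2.59 units, and was not tested. In all, 7 of the 9 genes had every scaled amiodarone pool above every scaled vehicle pool. Of all features 45.5% did, and 28.6% had every amiodarone pool below.

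**Figure D1:**
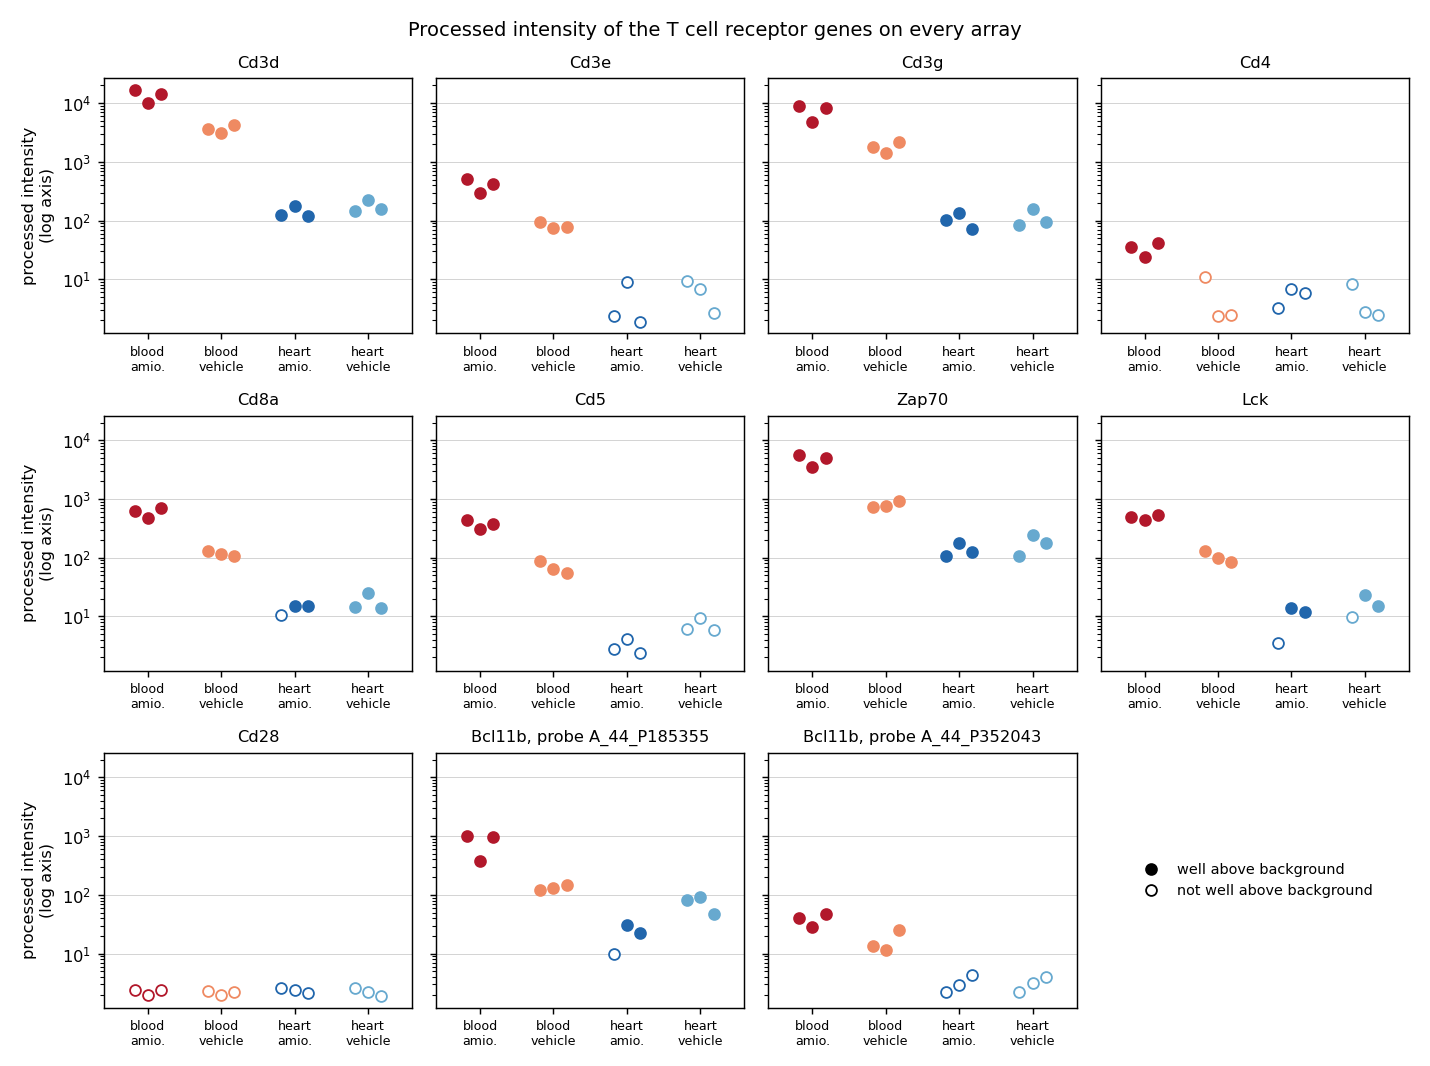
Processed intensity (log axis) of each of the 11 probes on all 12 arrays, with filled points where the probe was well above background and open points where it was not. For each probe measured in amiodarone blood, its amiodarone blood pools sit above its vehicle blood pools, and Cd28 stays between 1.93 and 2.59 everywhere.

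Without scaling, all 9 genes were higher in amiodarone blood, by 1.87 (Cd3d) to 2.53 (Zap70) on the log2 scale, leaving out Cd4, which no vehicle array measured, with adjusted p between 1.12e-06 and 3.58e-05. Of all features, 77% then passed, 75% higher and 1.96% lower, with a median of 2.04. This scaling subtracts the same value from every feature of an array, so distances from the median of all features cannot depend on it. Cd3d lay 0.17 below the median and Cd3g 0.06 below it, both scaled and unscaled. The others lay above it, Lck by 0.18, Cd3e by 0.22, Cd8a by 0.27, Bcl11b by 0.38, Cd5 by 0.41 and Zap70 by 0.49. In percentiles of all features these 8 genes ranged from 44.4 (Cd3d) to 74.4 (Zap70). Cd4 has only a bound and is not ranked. Cd3d and Cd3g lay above the median in other alternatives: with quantile scaling by 0.28 and 0.17, with normexp by 0.20 and 0.30 and in the authors' value table by 0.30 and 0.23. With quantile scaling both passed (adjusted p = 0.00870 and 0.0115) and Lck did not (adjusted p = 0.101).

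**Figure D2:**
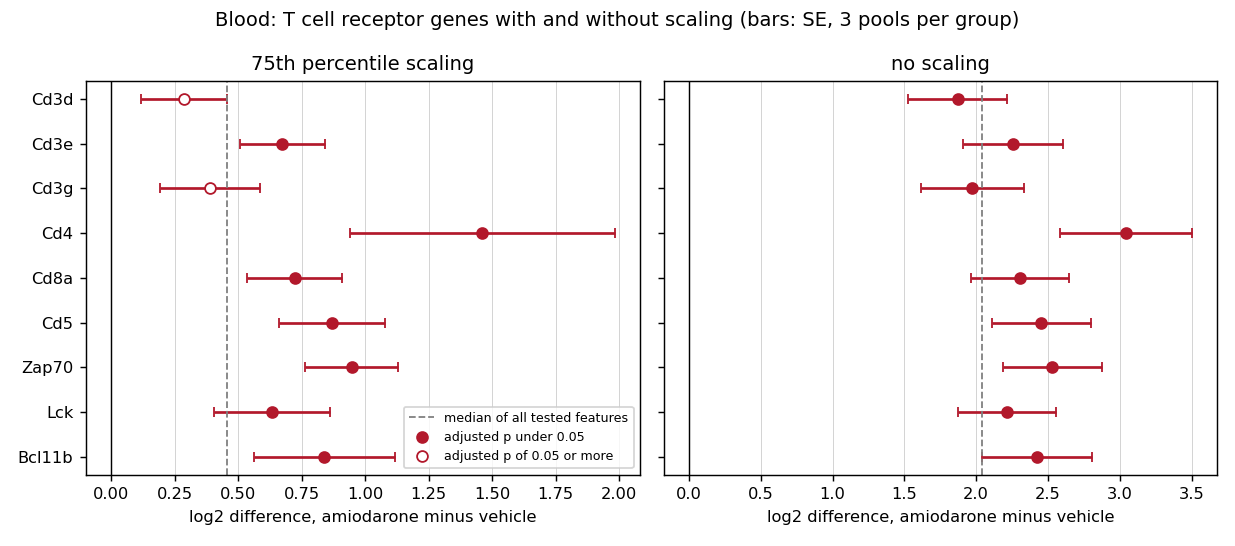
Log2 difference in blood, amiodarone minus vehicle, of the 9 tested genes with 75th percentile scaling (left) and without scaling (right), with SE bars (3 pools per group) and a dashed line at the median of all features, at 0.45 on the left and 2.04 on the right. Cd3d and Cd3g lie left of the dashed line in both panels, since the scaling shifts all features of an array alike.

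**Figure D3:**
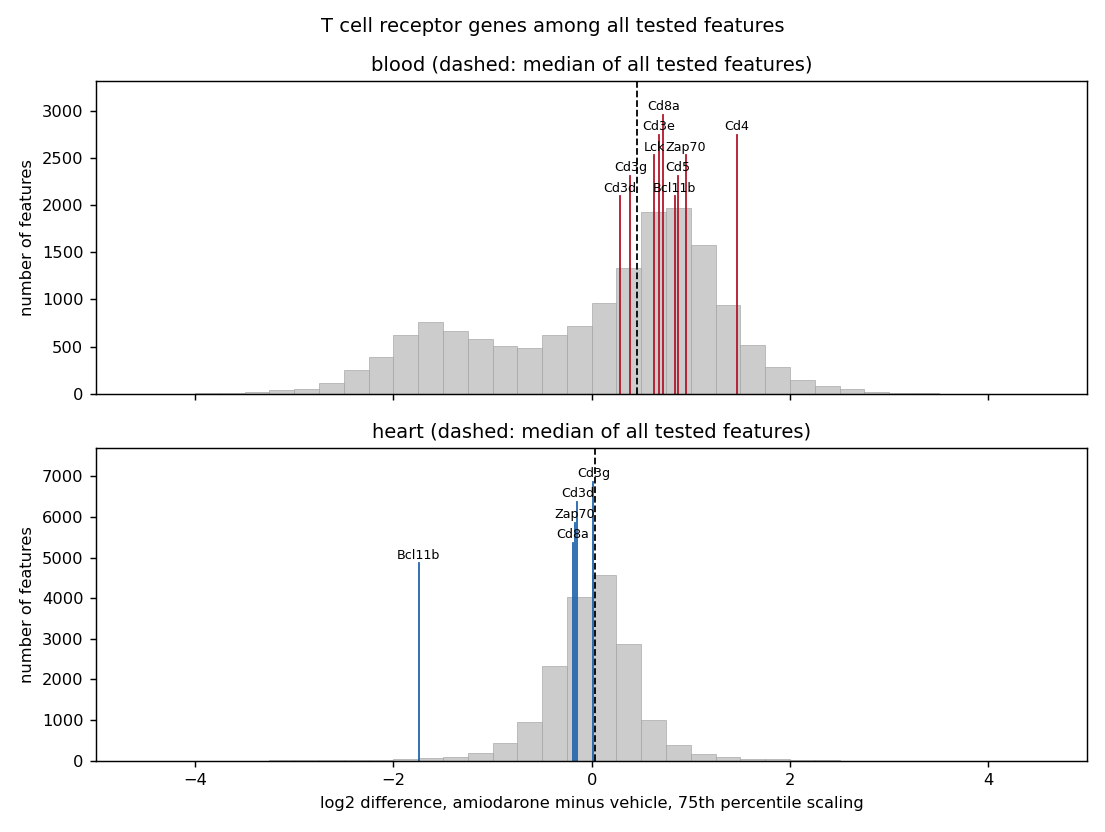
Number of features by log2 difference, amiodarone minus vehicle, in blood (top, 15663 features) and heart (bottom, 17466 features), with the tested genes marked by lines. The blood histogram has a main mode above 0 that holds all 9 genes and a lower mode below -1 that holds none of them, and in heart Bcl11b stands alone at -1.75.

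A ratio within an array does not depend on a scaling that subtracts 1 log2 value from the whole array. Each gene was therefore also set against the mean of the CD3 chains on the same array, a comparison chosen after the values were seen. The log2 difference minus that of the 3 chains was 0.50 in Zap70 (SE 0.12). Minus that of the other 2 chains, it was 0.34 in Cd3e (SE 0.18) and -0.24 in Cd3d (SE 0.08). In these 3 genes the amiodarone and vehicle pools did not overlap, and in Cd3g, Cd4, Cd8a, Cd5, Lck and Bcl11b they did. The share of all features without overlap on this measure was not computed. Cd3d and Cd3e each enter the reference of the other, so their values are not independent. With 3 pools against 3 the exact two-sided permutation test cannot give p below 0.1. Zap70, Cd3e and Cd3d reached that value, and after adjustment over the 9 genes their p was 0.3. None of the differences from the CD3 chains therefore passes a threshold of 0.05. Quantile scaling does not shift all features alike, and there the log2 differences were 0.74 in Cd3d, 0.63 in Cd3g and 0.55 in Cd3e. In the authors' value table they were 0.49, 0.43 and 0.39. Cd3d was then the highest chain and Cd3e the lowest, so the signs given for Cd3e and Cd3d turn in both.

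Several choices move the blood calls. Leaving out 1 pool at a time left 4 to 6 genes past the threshold. Cd3e, Cd8a, Cd5 and Zap70 passed in all 6 of these fits. Lck was lost without vehicle pool 2 or 3 or amiodarone pool 2 or 3, and Bcl11b without vehicle pool 1 or amiodarone pool 1 or 3 (adjusted p up to 0.119 and 0.101). Cd4 passed only in the fit without vehicle pool 1, at 2.12 (adjusted p = 0.00328), and ranged from 1.08 to 2.12 over the 6 fits. Cd3g passed without vehicle pool 3 (0.52, adjusted p = 0.0439). With normexp, another background correction, none of the 9 genes passed and none had an unadjusted p under 0.05, the smallest being 0.0645. All 9 fitted differences remained above 0 there, and 1283 of 15663 features passed, against 10669. With normexp, Cd28, which no array measured, read 84.6 to 528 in amiodarone blood and 57.6 to 60.3 in vehicle blood, and its processed intensity was 1.98 to 2.38 in amiodarone blood and 2 to 2.27 in vehicle blood. The median SD of the 9 genes between amiodarone blood pools was 0.604 with normexp and 0.161 without it (log2). The authors' value table gave 3 genes past the threshold, Cd3d, Cd3g and Zap70. The arrays of pools 1 and 2 shared a slide. On that slide alone Cd5 and Zap70 passed, and on the other slide, with 1 pool a group, all 9 differences were above 0, from 0.11 (Cd3d) to 1.19 (Cd5) leaving out Cd4, against 0.35 for the median feature.

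**Figure D4:**
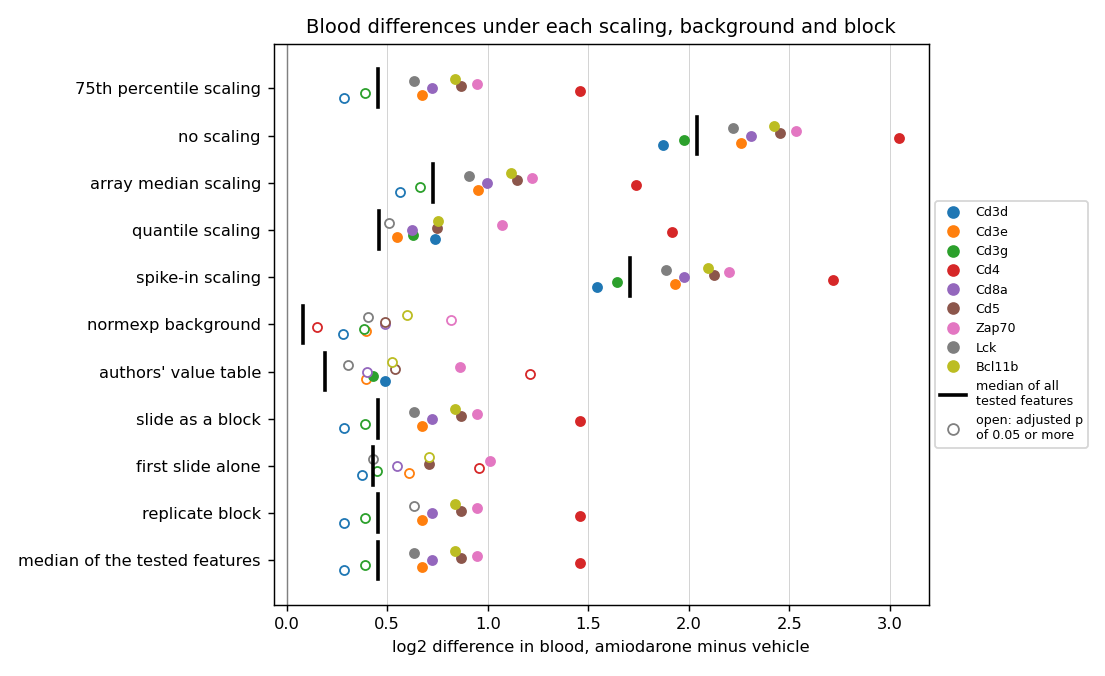
Log2 difference in blood, amiodarone minus vehicle, of the 9 tested genes under each scaling, background correction, table and block, with filled points past the threshold and a black bar at the median of all features. Every point is above 0, and Zap70 lies right of the black bar in every row.

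Markers of other blood cells moved in the same samples. Natural killer cells share Zap70 and Lck and, in rats, CD8 alpha with T cells. Of 15 natural killer markers tested, 12 were higher in amiodarone blood and 0 lower, with a median of 1.12. Without scaling 15 were higher, and with normexp 1 was. Their 16 genes held 0.166 to 0.190% of the summed signal in amiodarone blood and 0.0437 to 0.0479% in vehicle blood. Klrb1b and Klri2, killer cell lectin-like receptors, were at least 3.54-fold and 2.23-fold higher, and no vehicle array measured either. The limma test of both used the vehicle values as they were (adjusted p = 0.000939 and 0.00126) and was not run on the bound. The 10 T cell receptor genes held 0.118 to 0.136% in amiodarone blood and 0.0515 to 0.0602% in vehicle blood. The part of natural killer cells in the rise of Zap70, Lck and Cd8a was not tested.

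The red cell list went the other way. Of 18 red cell markers, 17 were lower in amiodarone blood and 0 higher, with a median of -2.30, without scaling 5 were lower and 1 higher, and with normexp 4 were lower. They held 1.08 to 1.77% of the signal in amiodarone blood and 3.05 to 3.55% in vehicle blood. Sptb and Ank1, which encode red cell skeleton proteins, fell by 3.12 and 3.11 (adjusted p = 0.000939 for each). Their part in the share of the T cell genes was not tested.

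Among other leukocytes, neutrophil markers were higher in 8 of 11 and lower in 1, with a median of 2.06. The decoy receptor Il1r2 (3.34) and the growth factor receptor Csf3r (2.14) are named for their small p, not for the largest differences. Prok2 and Mmp8, also among the 8, were measured on no vehicle blood array and were at least 9.07-fold and 5.44-fold higher. Without scaling 10 of the 11 were higher and 0 lower, and with normexp 7 and 0. The list held 0.0800 to 0.146% in amiodarone blood and 0.0141 to 0.0188% in vehicle blood. Of 12 monocyte and macrophage markers, 6 were higher and 2 lower (median 0.72), with C1qb, a complement chain, at -2.20 and the lysozyme gene Lyz2 at 1.37. Without scaling 10 were higher and 0 lower, and with normexp 0 and 1. C1qb did not pass without scaling (-0.61, adjusted p = 0.104) or with spike-in scaling (-0.94, adjusted p = 0.0816). Their share was 0.163 to 0.219% in amiodarone blood and 0.0349 to 0.0659% in vehicle blood. Monocytes carry CD4 in rats, and their part in the Cd4 signal was not tested.

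Among 10 B cell markers, 1 was higher with 75th percentile scaling, Cd22, an inhibitory receptor (0.72, SE 0.18, adjusted p = 0.0103), and none was lower, with a list median of 0.17 that lay below the median of all features. The count was 10 without scaling, 9 with spike-in scaling, 3 with array median scaling and 0 with normexp or the authors' value table, with none lower in any of these. The B cell share was 0.0285 to 0.0362% in amiodarone blood and 0.0157 to 0.0197% in vehicle blood. Platelet markers were higher in 6 of 8 (in 3 without amiodarone pool 3) and lower in none (median 0.99), with Gp5 at 1.49 and Itgb3, an integrin chain, at 1.43. Without scaling 8 were higher, and with normexp 0. Their share was 0.916 to 1.29% in amiodarone blood and 0.351 to 0.445% in vehicle blood. Of the dendritic cell markers 2 were tested and neither passed by limma, adjusted or at an unadjusted p under 0.05 (Siglech 0.18, Cd83 -0.03). Both were higher without scaling (1.76 and 1.55) and with spike-in scaling (1.43 and 1.22), so the sign for Cd83 turned. Of the cardiomyocyte markers 4 were measured in blood, 3 higher and 1 lower, with Tnnc1 at 1.56 and Ryr2 at -1.69. Without scaling 3 were higher and 0 lower, with Ryr2 at -0.11 (adjusted p = 0.785), and with normexp none passed.

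The wider T cell signalling genes were counted in the same way. Of 33 other genes of T cell receptor signalling tested in blood, 25 were higher and 4 lower, with a median of 0.84 against 0.45 over all features. Without scaling 29 were higher and 0 lower. Tagap, a GTPase-activating protein of T cell activation, rose by 1.24 (SE 0.16, adjusted p = 0.00120). The adaptor Lcp2, also known as SLP-76, rose by 1.35 (SE 0.18, adjusted p = 0.00123), and the exchange factor Vav1 by 1.28 (SE 0.17, adjusted p = 0.00126). Ptprc, the phosphatase CD45 that activates Lck, had 692, 443 and 547 in amiodarone blood against 488, 441 and 433 in vehicle blood. Scaled, it fell by 1.30 (SE 0.17, adjusted p = 0.00121), while its difference was 0.28 without scaling and -0.05 with spike-in scaling, neither past the threshold. Leaving out 1 pool gave 21 to 23 of these genes higher and 4 lower, and with normexp 0 were higher and 1 was lower.

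Costimulatory and coinhibitory receptors and their ligands were higher in 6 of 13 and lower in 2 (median 0.73), and without scaling in 12 and 0. The adhesion receptors Cd2 and Cd6 rose by 0.92 and 0.77 (adjusted p = 0.00497 and 0.00581), and the activating receptor Cd226 by 1.44 (adjusted p = 0.0111). Cd244, a receptor of killer cells, passed at adjusted p = 0.00294, but no vehicle array measured it and its bound gives no fold. T cell transcription factors were higher in 9 of 18 and lower in 3 (median 0.67), and without scaling in 16 and 0. Id2, an inhibitor of helix-loop-helix factors, rose by 1.82 and the chromatin organiser Satb1 by 1.05 (adjusted p = 0.00158 and 0.00388). Zbtb7b, the CD4 lineage factor, was 2.15-fold higher (adjusted p = 0.00225). Runx3, a factor of the CD8 lineage, fell by 1.19 (adjusted p = 0.00144) and had unscaled and spike-in scaled differences of 0.40 and 0.07, neither past the threshold. With normexp, 0 of the 13 receptors and ligands passed and 1 of the 18 factors did.

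Homing and cytokine receptors were higher in 12 of 18 and lower in 1 (median 0.99). Without scaling 17 were higher and 1 lower, and with normexp 1 and 1. The integrin chain Itgb2 rose by 1.50, the interleukin-6 receptor Il6r by 1.58 and the hyaluronan receptor Cd44 by 1.53 (adjusted p = 0.00105 to 0.00140). Il2ra, the alpha chain of the interleukin-2 receptor, had 54.6, 52.6 and 59.7 in amiodarone blood against 89.8, 90.5 and 118 in vehicle blood. It fell by 2.41 scaled (SE 0.22, adjusted p = 0.000939), and its unscaled difference was -0.83. Effector products were higher in 4 of 7 and lower in 2 (median 0.88). Without scaling 5 were higher and 1 lower, and with normexp none passed. Granzyme K (Gzmk) rose by 1.49, Ccl5, a chemokine, by 1.25 and Faslg, the Fas ligand, by 1.13, the last measured on 1 of 3 vehicle arrays. Csf2, which encodes a myeloid growth factor, fell by 2.39 (adjusted p = 0.000981; unscaled -0.81). Many genes of these lists are also expressed by other leukocytes.

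Promoters are shown for some of the genes that rose in blood (Cd3e, Zap70 and Lck) and for Cd3d, which did not pass. The sequences are RefSeq's for the GRCr8 build, 250 bases before the annotated start, read in the direction of the gene. Capitals mark AGGAAG or its reverse complement CTTCCT, a core that ETS family factors can bind. Such a match was present in 29.5% of 33469 promoters of the same length, and in 6 of the 8 genes that had an entry (Cd3d, Cd3e, Cd3g, Cd5, Zap70 and Lck). Cd8a, which also rose in blood, and Cd28, which was not tested, have an entry without a match and are not shown. Every promoter shown holds a match. Cd4 and Bcl11b had no entry. Lck has 2 entries, and both hold a match.
Cd3d, chr8:54185269-54185518, plus strand: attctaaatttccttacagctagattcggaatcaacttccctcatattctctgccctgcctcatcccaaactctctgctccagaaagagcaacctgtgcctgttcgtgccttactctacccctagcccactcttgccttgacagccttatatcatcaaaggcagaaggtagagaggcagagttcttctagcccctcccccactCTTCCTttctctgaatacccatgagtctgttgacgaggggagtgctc
Cd3e, chr8:54211771-54212020, minus strand: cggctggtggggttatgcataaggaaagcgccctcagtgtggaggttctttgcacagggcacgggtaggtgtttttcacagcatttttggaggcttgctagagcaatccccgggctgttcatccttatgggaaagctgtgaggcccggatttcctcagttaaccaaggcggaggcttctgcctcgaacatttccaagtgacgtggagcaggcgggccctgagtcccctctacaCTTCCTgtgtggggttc
Zap70, chr9:46485355-46485604, plus strand: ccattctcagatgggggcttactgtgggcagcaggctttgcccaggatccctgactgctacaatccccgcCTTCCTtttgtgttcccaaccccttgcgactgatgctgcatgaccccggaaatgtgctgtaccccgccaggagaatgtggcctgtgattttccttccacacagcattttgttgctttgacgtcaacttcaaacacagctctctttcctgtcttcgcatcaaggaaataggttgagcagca
Lck, lower-coordinate entry, chr5:147183651-147183900, minus strand: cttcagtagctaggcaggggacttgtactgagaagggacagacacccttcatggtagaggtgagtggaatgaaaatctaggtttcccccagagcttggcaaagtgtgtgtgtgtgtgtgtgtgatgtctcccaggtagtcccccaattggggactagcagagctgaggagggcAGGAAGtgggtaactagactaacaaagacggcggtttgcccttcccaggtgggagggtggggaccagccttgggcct
Lck, higher-coordinate entry, chr5:147201268-147201517, minus strand: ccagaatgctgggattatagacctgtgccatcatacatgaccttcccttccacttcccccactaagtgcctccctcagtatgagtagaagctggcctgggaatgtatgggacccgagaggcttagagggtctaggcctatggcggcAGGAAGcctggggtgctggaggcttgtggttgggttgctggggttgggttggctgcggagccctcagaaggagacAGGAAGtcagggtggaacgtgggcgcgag

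Counted back from the start, the match begins at base 47 in Cd3d, base 17 in Cd3e and base 180 in Zap70. In Lck it begins at base 77 of the lower-coordinate entry and at bases 104 and 29 of the other. The matches in Cd3d, Cd3e and Zap70 are on the opposite strand, as CTTCCT. The starts of Cd3g and Cd3d lie 1601 bases apart and face away from each other, and that of Cd3e lies 26251 bases beyond Cd3d. The other motifs searched on both strands were TGTGGT (RUNX type, 2 of 8 genes against 14.5% of promoters), CACCTG (E box, 4 of 8 against 15.9%) and CTTTGA (TCF or LEF type, 2 of 8 against 13.9%). A GATA-type match, AGATAA, was in 1 of 8 against 10.3% of promoters. A GC-box match, GGGCGG, was in 1 of 8 against 30.5%. A match to the textbook core promoter box, TATAAA, was in 0 of 8 against 12.9%. A match describes letters in this window and is no evidence of binding.

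In the left ventricle, 1 of the 5 testable genes was lower after amiodarone and none was higher. That gene was Bcl11b, and 8.6% of the 17466 features tested in heart passed, 4.13% lower and 4.47% higher. Without scaling it was again the only gene of the 5 to pass, where 4.21% of features passed, 2.92% lower and 1.29% higher. Bcl11b had 9.70, 31.1 and 22.7 on its brighter probe in amiodarone hearts, against 80.6, 92.1 and 46.5 in vehicle hearts. It fell by 1.75 on the log2 scale (SE 0.38, adjusted p = 0.0341), the groups did not overlap, and amiodarone pool 1 was not well above background. Every scaled amiodarone pool was below every vehicle pool in 13.2% of all heart features and above in 19.2%. The dimmer Bcl11b probe was not well above background on any heart array, so only 1 of the 2 probes bears on this.

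The Bcl11b call in heart was not firm. It was lost without vehicle pool 1 (-1.49), without vehicle pool 2 (-1.71) and without amiodarone pool 2 (-1.93), at adjusted p = 0.101, 0.116 and 0.0608. On the slide of pools 1 and 2 alone the difference was -2.23 (adjusted p = 0.0589), and on the other slide, with 1 pool a group, it was -0.78. With the authors' value table it was -1.82 (adjusted p = 0.0552), and with normexp it was -0.62 and passed (adjusted p = 0.0232).

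The other heart values were close to 0. Cd3d had 126, 179.7 and 122 in amiodarone hearts against 143, 223 and 155 in vehicle hearts, a difference of -0.14 (SE 0.14, adjusted p = 0.552). Zap70 had 107, 179 and 123 in amiodarone hearts against 107, 239 and 176 in vehicle hearts, a difference of -0.17 (SE 0.17, adjusted p = 0.580). In both genes the groups overlapped. Cd3g had 101, 134 and 72.0 in amiodarone hearts against 83.9, 159 and 94.7 in vehicle hearts, with a difference of 0.02 (SE 0.20, adjusted p = 0.967) that was -0.12 without scaling. Cd8a had 10.8, 15.2 and 15.3 in amiodarone hearts against 14.2, 25.3 and 13.8 in vehicle hearts, a difference of -0.19 (SE 0.20, adjusted p = 0.596) that was 0.015 with normexp. Cd8a was measured on 2 of 3 amiodarone arrays. Lck was well above background on 2 of 3 arrays in each heart group, with 3.52 to 14.1 in amiodarone hearts and 9.85 to 23.5 in vehicle hearts, and was not tested. Cd3e, Cd4 and Cd5 were not well above background on any heart array. The 10 genes held 0.00114 to 0.00128% of the heart signal in amiodarone pools and 0.00139 to 0.00193% in vehicle pools.

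Few of the other listed genes passed in heart. Of 22 other T cell receptor signalling genes, 1 was higher and 1 lower. Cblb, a ubiquitin ligase that restrains T cell activation, rose by 0.84 (SE 0.15, adjusted p = 0.0153). Cblb had 419, 495 and 356 in amiodarone hearts against 210.1, 331 and 248 in vehicle hearts. The Cblb call was lost without any 1 of the vehicle pools (adjusted p up to 0.0749). Unscaled, the Cblb difference was 0.70 and did not pass (adjusted p = 0.412). Of 10 homing and cytokine receptors, Il6r rose by 1.44 (SE 0.20, adjusted p = 0.00712) and passed without any 1 pool. It had 294, 418 and 197 in amiodarone hearts against 88.6, 158 and 116 in vehicle hearts.

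None of the 4 costimulatory genes, 10 transcription factors and 4 effector products passed in heart by limma. At an unadjusted p under 0.05 the counts were 0, 3 and 0. Among their genes of smallest p were Tnfrsf4 (-0.25) and Cd48 (-0.15), Id3 (0.34), and Gzmk (0.52) and Ccl5 (0.30). Natural killer markers passed in 0 of 11 and in 3 at an unadjusted p under 0.05 (median -0.15). B cell markers were lower in 1 of 2 and higher in none, and red cell markers lower in 8 of 13 and higher in none (median -1.20). Monocyte and macrophage markers were higher in 2 of 11 and lower in none (median 0.46), neutrophil markers higher in 2 of 4 and lower in 1, and platelet markers higher in 2 of 4 and lower in 1. Blood held in the vessels of the ventricle reaches these arrays too, and the red cell markers held 0.0231 to 0.0286% of the signal in amiodarone hearts and 0.0498 to 0.0556% in vehicle hearts. Its part in the heart levels of the T cell genes was not tested.

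**Figure D5:**
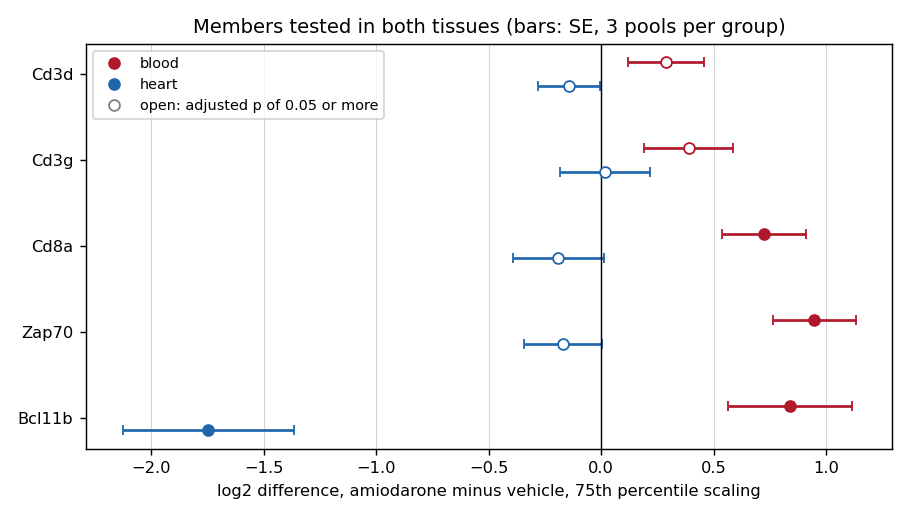
Log2 difference, amiodarone minus vehicle, with 75th percentile scaling for the 5 genes tested in both tissues, with blood above heart in each row, SE bars (3 pools per group) and open points where the test was not passed. Blood values are above 0 in all 5 genes, and Bcl11b in heart lies at -1.75.

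The test of the drug effect in blood against that in heart was passed by 4 of the 9 genes, with the difference above 0 in each. Of all 20053 features 46.6% passed, 21.9% higher in blood and 24.6% lower, so the count is near the background for either direction. Of the 4 genes, Bcl11b, Zap70 and Cd8a were measured in both tissues and Cd5 was not. The difference, blood minus heart, was 2.58 in Bcl11b (SE 0.52, adjusted p = 0.00303), 1.12 in Zap70 (SE 0.25, adjusted p = 0.00543) and 0.91 in Cd8a (SE 0.28, adjusted p = 0.0224). Cd5 had 1.94 (SE 0.27, adjusted p = 0.000567), but no heart array measured it, so this value sets the blood change against background and gives no heart drug effect: 2.79, 4.09 and 2.43 in amiodarone hearts against 6.18, 9.30 and 5.93 in vehicle hearts. Cd3d (0.43), Cd3g (0.37), Cd3e (1.20), Cd4 (0.93) and Lck (1.35, adjusted p = 0.0559) did not pass. Cd8a was lost without vehicle heart pool 2, amiodarone heart pool 2 or amiodarone blood pool 3 (adjusted p up to 0.0564). Lck passed without amiodarone heart pool 2 or 3 and Cd3e without amiodarone heart pool 2, with 3 to 5 genes passing over the 12 fits. The median was 1.12 over the 9 genes and 0.07 over all features, and without scaling all 9 genes passed against 63.9% of all features, 62.9% higher in blood and 0.982% lower. The 9 include Cd3e, Cd4 and Cd5, which no heart array measured, and Lck, which only some heart arrays measured. Where every array had to measure the probe, Cd3d, Cd3g and Zap70 remained, with a median of 0.43 against 0.28 over all features.

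Between tissues, all 9 genes were higher in blood than in heart within the amiodarone pools. Within the vehicle pools the 8 genes other than Cd4 were. Cd4 passed there too, but no vehicle array of either tissue measured it, so its difference is one between backgrounds. In amiodarone pools 80.6% of features differed, 40.9% higher in blood and 39.6% lower, and in vehicle pools 81.2% differed, 38.4% higher in blood and 42.8% lower. Cd3d was 165-fold higher in amiodarone blood than in amiodarone heart and 122-fold higher in vehicle blood than in vehicle heart. For Cd3g these folds were 121 and 93.6, for Cd8a 74.9 and 39.8, for Zap70 60.2 and 27.8 and for Lck 99.3 and 38.9, in the same order. The brighter Bcl11b probe was 64.8-fold higher in amiodarone blood and 10.8-fold higher in vehicle blood. No heart array measured Cd3e or Cd5, so Cd3e was at least 71.2-fold higher in amiodarone blood and at least 53.1-fold higher in vehicle blood, and Cd5 at least 66.4-fold and 41.3-fold. Cd4 was at least 5.87-fold higher in amiodarone blood. In vehicle pools no fold is given for Cd4. All folds above use 75th percentile scaling. Without scaling, Cd3d was 95.4-fold higher in blood in amiodarone pools and 21.4-fold in vehicle pools. In the same order the unscaled folds were 70.1 and 16.4 for Cd3g, 43.3 and 6.97 for Cd8a and 34.8 and 4.86 for Zap70. They were 57.4 and 6.81 for Lck and 37.5 and 1.89 for the brighter Bcl11b probe. Without scaling the amiodarone contrast passed in all 9 genes (77.4% of features, 27.9% higher in blood and 49.5% lower). The vehicle contrast then passed in 7 of the 9 (87.4% of features, 14.7% higher and 72.6% lower), with Bcl11b at 0.92 (adjusted p = 0.0522) and Cd4 at 0.06 not past the threshold. Tissue, RNA kit (PAXgene for blood, RNeasy for heart) and slide cannot be told apart.

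The order of the scaled group means was the same for Cd3d, Cd3e, Cd3g, Cd8a, Cd5, Zap70, Lck and the brighter Bcl11b probe. Amiodarone blood was above vehicle blood, and vehicle blood above both heart groups. The step within blood did not pass in Cd3d and Cd3g, and the heart levels of Cd3e and Cd5 were background. In scaled log2 units Zap70 stood at 6.07 ± 0.03 in amiodarone blood and 5.12 ± 0.23 in vehicle blood, and at 0.16 ± 0.10 in amiodarone heart and 0.33 ± 0.27 in vehicle heart (SD, n = 3 each). Bcl11b stood at 3.36 ± 0.49 in amiodarone blood and 2.52 ± 0.23 in vehicle blood, and at -2.65 ± 0.66 in amiodarone heart and -0.91 ± 0.56 in vehicle heart (SD, n = 3 each). The heart groups of Zap70 did not differ beyond their spread.

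Of the named genes outside the group, Tnfrsf14, Lat and Resp18 had profiles most like the mean of the 9 genes over the 12 arrays, with Pearson r of 0.998 each, as had 2 probes without a gene symbol. Lat is the adaptor that ZAP-70 phosphorylates, and Tnfrsf14 is a receptor of the tumour necrosis factor family on lymphocytes. All points share the large step between tissues, so r describes that step and carries no p. In blood Lat, Tnfrsf14 and Resp18 rose by 0.69, 0.63 and 0.76 (adjusted p = 0.0104, 0.0201 and 0.00492), and in heart they had -0.14, -0.52 and -0.23, none past the threshold.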

How the data were processed

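Per the labels, RNA was extracted with the Qiagen RNeasy Mini kit (heart) or the PAXgene Blood RNA kit (blood), labelled with 1 dye and hybridised to 12 arrays. Per the file headers, the deposited intensity is the processed signal of Agilent Feature Extraction 9.5.1.1, background-subtracted and detrended, and the mean and local background intensity are in the same files. The authors' deposited value table holds normalized intensity on a linear scale, by a method not given in the sources used here, and served as an alternative. The design text says that heart and blood were normalized separately.

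Intensity from the deposited files was moved to log2 here, outlier spots were dropped, repeated spots of a probe were averaged, and each array's log2 75th percentile was subtracted. Tested probes were those well above background throughout 1 or more groups of 3 arrays, and the brightest such probe stood for its gene. The tests within a tissue used limma 3.58.1 (R 4.3.3) on that tissue's 6 arrays, two-sided, with Benjamini-Hochberg adjustment over all features tested and a threshold of 0.05. Tissue differences came from 1 fit of all 12 arrays. The fit was tested on simulated data: of 50 changes of 4-fold it recovered 78% among 15663 blood features and 90% among 17466 heart features, and of 50 changes of 2-fold 12% and 52%. Only the added changes were present in the simulation, while 68.1% of blood and 8.6% of heart features passed in the data. The adjusted threshold is stricter where fewer features change, so these rates do not measure recovery in the real blood fit. Array number limits precision. No pair of arrays held identical values.

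The genes, the 5 pathway lists and the 8 marker lists were chosen with earlier results of these data known. The named genes were all members by every probe, up to 4 genes of smallest p past the threshold per pathway list and tissue (or 2 as plain values), 2 per marker list in blood, and the 5 features most like the members. A few genes that this rule picks are not reported here. Alternatives covered scaling (none, array median, quantile, E1A spike-in spots), normexp with an offset of 50, the value table, the filter on dim probes, each probe on its own, the slide, a replicate block and leaving out each pool. Scaling by the median of the tested features was chosen after seeing the data.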

Additional observations from a re-analysis of the deposited data

Results flagged for a closer look

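In 4 of 9 genes a limma test of the drug effect in blood against that in heart was passed, each higher in blood. This is near the 46.6% of all features that passed it in either direction, 21.9% higher in blood and 24.6% lower. The log2 drug effect, blood minus heart, was 2.58 in Bcl11b (SE 0.52, adjusted p = 0.00303), on the brighter of its 2 probes. It was 1.94 in Cd5 (SE 0.27, adjusted p = 0.000567), where no heart array measured the gene and the heart side is background. Zap70 had 1.12 (SE 0.25, adjusted p = 0.00543) and Cd8a 0.91 (SE 0.28, adjusted p = 0.0224). The dimmer Bcl11b probe had -0.50 (SE 0.46, adjusted p = 0.386).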

How the results depend on the processing

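Of 9 genes, 7 passed in blood with 75th percentile scaling, among them Cd4, which no vehicle blood array measured. The count was 0 with normexp, 3 with the authors' value table and 2 on the first slide alone, and 4 to 6 when 1 pool was left out. With the replicate block it was 6, with Lck lost (adjusted p = 0.0502). Amiodarone and vehicle pools of 1 number in a tissue share a slide, which pools 1 and 2 have in common, and no label pairs them otherwise. Deviations of same-numbered pools correlated at 0.085, 0.172 and 0.308 in blood and at -0.165, -0.238 and 0.316 in heart. In heart the count of 1 became 0 with the value table, no filter on dim probes, a filter requiring every array, the first slide alone or the replicate block, and was 0 to 1 when 1 pool was left out. In the difference between tissues the count of 4 became 9 without scaling, 8 with spike-in scaling, 1 with normexp and 1 of 3 testable genes when every array had to measure the probe, and was 3 to 5 when 1 pool was left out. With 75th percentile scaling the contrasts between tissues passed in 9 of 9, also without any 1 pool (Cd4 in vehicle pools on background values), and in 3 of the 3 genes measured on every array. Differences that turned sign were Cd3g in heart (-0.12 without scaling, and -0.104 to 0.189 when 1 pool was left out, below 0 without vehicle pool 1 or 3 or amiodarone pool 1 or 2) and Cd8a in heart (0.015 with normexp). No blood difference of the 9 genes turned sign under the alternatives of scaling, background, filter, slide, block and left-out pools. With each probe on its own, the dimmer Bcl11b probe had the opposite sign of the brighter one, at -0.34 in blood (brighter 0.84) and -0.50 in the difference between tissues (brighter 2.58).

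Over all blood features, 10669 passed, against 1283 with normexp and 24673 with no filter. In heart 1502 passed, against 735 without scaling, 885 with spike-in scaling, 285 with no filter, 286 on the first slide alone and 749 with the replicate block, and 537 to 1379 when 1 pool was left out. In the difference 9338 passed, against 1808 with normexp, 18853 with no filter and 5250 with every array measured. The share of calls that were higher was 60.5% with 75th percentile scaling, 97.5% without scaling, 96.8% with spike-in scaling, 69.4% with array median scaling, 47.1% with the value table, 26.7% with no filter and 18.9% with normexp. In heart it was 52%, against 30.6% without scaling and 64.1% with array median scaling. In the difference it was 47.1%, against 98.5% without scaling, 96.1% with spike-in scaling, 58.9% with quantile scaling, 57.3% with every array measured, 32.8% with normexp and 22.6% with no filter. The median difference of all features moved from 0.45 to 2.04 without scaling and to 1.71 with spike-in scaling. Signal over background limits Cd4, Cd28 and the heart values of most of these genes. The cause of the lost calls was not tested.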
